A study of Mus musculus with 20 samples.

Results

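The small intestine of mouse offspring of control dams was compared between 7 weeks of age, after weaning, and 2 weeks of age, when pups still suckle. The comparison used 10 of the 20 libraries of the study: the 5 control libraries of 7 weeks (replicates 1 to 5) and the 5 control libraries of 2 weeks (replicates 1 to 5), chosen by their labels alone. The other 10 libraries came from offspring of dams with periodontitis at the same ages. The study was designed to set gene expression in offspring of the 2 kinds of dam side by side. Both control groups were labelled small intestine, treatment control, with polyA RNA sequenced in bulk; the labels give no strain, sex, litter, time of day or intestinal segment, and no treatment of the pups themselves. The labels do not say how many pups made up a library or which pups shared a dam, so p-values measure the spread between libraries. That spread was estimated from all 20 libraries in their 4 groups. The p-values and standard errors thus also carry the spread among the periodontitis libraries. In bulk RNA, fewer cells of a type and less RNA per cell cannot be told apart.

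A suckling pup takes in milk, which is rich in fat, lactose and maternal antibodies. Its enterocytes, the absorptive cells of the gut lining, take up whole proteins by endocytosis and digest them in large lysosomes, and the epithelium carries maternal IgG into the blood. At weaning the pup changes to a starch-rich diet, the brush border gains enzymes that split sucrose, maltose and trehalose, and plasma cells, T cells and a denser community of bacteria settle in the gut.

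Levels below are in CPM (counts-per-million), the deposited counts of a gene relative to the library total after scaling by trimmed mean of M values (TMM). A log2 fold change is that of 7 against 2 weeks in control offspring, so positive values were higher at 7 weeks, and the value after ± is its standard error (SE, n = 5 libraries per age). The test was edgeR's quasi-likelihood test with Benjamini-Hochberg adjustment over all 17464 genes tested, and a gene is said to have risen or fallen where its adjusted p was under 0.05. By this rule 4740 genes rose (27.1% of those tested) and 5999 fell (34.4%), and counts of members of a list below are to be read against those shares. The 5 libraries of each age did not overlap in CPM for 3930 higher genes (22.5%) and 4045 lower genes (23.2%). At least 2-fold differences were seen among 2467 risen genes (14.1%) and 4578 fallen genes (26.2%). A test for a fold above 2 within the model passed for 1142 genes upward (6.54%) and 2629 downward (15.1%). A difference of at least 8-fold was found for 247 risen and 644 fallen genes, and one of at least 100-fold for 20 and 81.

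The split between higher and lower genes depended on the scaling. Of the genes called, 44.1% were higher at 7 weeks with TMM and 14.3% with scaling to total counts, which called 1652 genes higher (9.46%) and 9925 lower (56.8%). The median log2 fold change of all genes tested was -0.13 with TMM and -0.79 with total counts, a shift of -0.66. Scaling by DESeq2's size factors gave a median of -0.12. Below, list counts with total counts are therefore given beside the TMM counts, and medians are to be read against these medians of all genes.

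**Figure D1:**
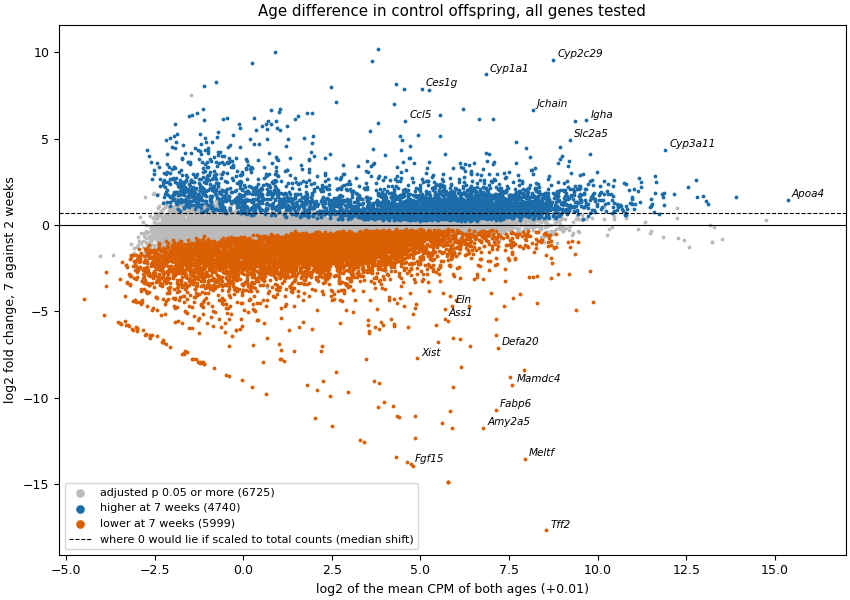
Log2 fold change of 7 against 2 weeks in control offspring (vertical axis) against the log2 of the mean CPM of both ages (horizontal axis) for the 17464 genes tested, 1 point per gene; blue points (4740) were higher and orange points (5999) lower at an adjusted p under 0.05. The dashed line marks the median shift between TMM and total counts. Among the labelled genes Tff2, Meltf and Fgf15 lie lowest and Cyp2c29, Cyp1a1 and Ces1g highest; fitted values of genes with 0 counts at one age depend on the prior count of the fit.

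The first principal component of log2 CPM of the 10 libraries held 63.9% of the variance and parted the ages; the second held 23% and set 2-week library 5 apart from all others. That library had 14882204 counts, 20080 genes with counts and 29.4% of counts from mitochondrially encoded genes. The other 2-week libraries had 31791195 to 39589748 counts, 23350 to 23574 genes and 3.99% to 4.87%, and the 7-week libraries had 28544812 to 37054375 counts, 21016 to 22523 genes and 4.63% to 7.91%. Without library 5, 5794 genes rose and 6614 fell. Its values are therefore given gene by gene below, and results that rest on it are named. Xist, the RNA that silences 1 X chromosome of female cells, stood at 92.3, 28, 90, 70.5 and 16.6 CPM at 2 weeks and 0.166, 0.392, 0.131, 0.389 and 0.362 CPM at 7 weeks; the Y-linked helicase gene Ddx3y stood at 0, 26.5, 16.5, 16.1 and 77.4 CPM at 2 weeks and 56.7, 67.1, 34.4, 83.8 and 70.6 CPM at 7 weeks. All 7-week libraries thus carried Y-linked and almost no Xist transcripts, whereas 4 of the 2-week libraries carried both and library 1 only Xist. Age and sex cannot be told apart in these groups. With a covariate for Y-linked transcripts, 4575 genes rose and 5721 fell.

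The label small intestine was checked against marker genes. The epithelial genes Epcam, Cdh1 and Vil1 together stood at 2824 to 3391 CPM at 2 weeks and at 5154 to 6345 CPM at 7 weeks. This gap depended on the scaling. Cdh1 had a log2 fold change of 0.92 with TMM and of 0.25 (adjusted p = 0.0941) with total counts. Of 16 epithelial genes, 12 rose and 2 fell with TMM, and 3 rose and 2 fell with total counts. The 2-week libraries also held transcripts of neighbouring organs and of the distal gut, many of which were far lower or absent in the 7-week libraries. Tff2, a peptide of the stomach's mucous cells, stood at 696, 786, 635, 742 and 877 CPM at 2 weeks and 0, 0, 0, 0 and 0 CPM at 7 weeks, and so was at least 31759-fold lower at 7 weeks (taking 3 counts in the 5 libraries together as the limit for a count of 0). Muc6, a mucin of stomach glands, stood at 128 to 669 CPM at 2 weeks and 0.328 to 1.13 CPM at 7 weeks (log2 fold change -8.79 ± 0.83, adjusted p = 1.08e-07). Gkn3, a stomach gastrokine, stood at 385 to 537 CPM at 2 weeks and 0.638 to 2.56 CPM at 7 weeks (log2 fold change -8.40 ± 0.94, adjusted p = 7.51e-07). The markers Gkn1, Gkn2, Muc5ac and Atp4b summed to 37.3 to 201.8 CPM at 2 weeks and to 0 to 0.0805 CPM at 7 weeks. The whole gastric list of 13 genes summed to 1520.0 to 2110.0 CPM and to 32.6 to 56.3 CPM. Of the 13, 5 had 0 counts in all 7-week libraries and 1 had 0 counts in all 2-week libraries. Of the 10 gastric genes tested, 8 fell and 2 did not pass (9 fell with total counts).

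Digestive enzymes of the exocrine pancreas showed the same pattern. All 22 genes of the pancreas list fell, with either scaling, and their sum ran from 405 to 2140.0 CPM at 2 weeks and from 43.6 to 61.5 CPM at 7 weeks, when 5 of the 22 had 0 counts in all libraries. The amylase gene Amy2a5 stood at 219, 54.3, 75.7, 177 and 564 CPM at 2 weeks and 0.133, 0, 0.0328, 0.0778 and 0.0402 CPM at 7 weeks. Amy2a5 had a log2 fold change of -11.73 ± 1.45 (adjusted p = 6.99e-06). The protease gene Ctrb1 stood at 195, 56.3, 111, 168 and 64.6 CPM at 2 weeks and 0.0332, 0, 0, 0 and 0.121 CPM at 7 weeks. For Ctrb1 the log2 fold change was -11.77 ± 0.80 (adjusted p = 3.58e-09). The elastase gene Cela2a, at 43.7 to 179 CPM at 2 weeks and 0 to 0.0981 CPM at 7 weeks, and the carboxypeptidase gene Cpb1, at 18.8 to 382 CPM at 2 weeks and 0.0389 to 0.0981 CPM at 7 weeks, fell as well. The log2 fold change of Amy2a5 and Cpb1 was -11.01 and -9.50 without 2-week library 5, that of Ctrb1 -13.18 without 7-week library 5 and that of Cela2a -12.15 without 7-week library 2. The amylase copies Amy2a2, Amy2a3 and Amy2a4, which are not among the 22, had identical values, at 114, 26.8, 44.7, 101 and 259 CPM at 2 weeks and 0, 0, 0, 0 and 0 CPM at 7 weeks, a level at least 3746-fold lower at 7 weeks, and reads cannot be told apart between such copies. Library 2 was the lowest 2-week library for each of these pancreas genes, and the levels spread far more among the 2-week libraries than those of Tff2. All of the pancreas markers Prss2, Cela2a, Cpa1 and Pnlip together came to 65.5 to 318.7 CPM at 2 weeks and 0.0328 to 0.196 CPM at 7 weeks.

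Genes of the ileum, the last stretch of the small intestine, were far lower at 7 weeks. Fabp6, which carries bile acids inside ileal enterocytes, stood at 197, 233, 224, 509.9 and 226 CPM at 2 weeks and 0.0332, 0, 0.0328, 0.0389 and 0.724 CPM at 7 weeks. Fabp6 gave a log2 fold change of -10.72 ± 1.55 (adjusted p = 3.02e-05), against -13.11 without 7-week library 5. Slc10a2, which takes up bile acids at the ileal brush border, stood at 14.1, 15.5, 17.3, 67.8 and 167 CPM at 2 weeks and 1.72, 1.96, 2.53, 2.41 and 2.86 CPM at 7 weeks. Slc10a2 had a log2 fold change of -4.61 ± 0.85 (adjusted p = 0.000134), against -3.64 without 2-week library 5. Fgf15, the hormone the ileum releases in response to bile acids, stood at 58.3, 65, 48.4, 53 and 39.5 CPM at 2 weeks and 0, 0, 0, 0 and 0 CPM at 7 weeks, a fall of at least 2419-fold. Groups did not overlap for any of the 3. Of the 15 distal genes tested, 10 fell and 2 rose (11 and 0 with total counts, and 10 and 4 without 2-week library 5), and the transcription factor gene Osr2 was among those that fell, at 33.1 to 43.2 CPM at 2 weeks and 0.623 to 3.3 CPM at 7 weeks. Of the 15 proximal genes, 10 rose and 3 fell (9 and 4 with total counts), with medians of 1.36 and 0.73. These included Gata4, a transcription factor of the proximal gut, at 93.9, 93.9, 90, 91.1 and 27 CPM at 2 weeks and 179, 202, 186, 171 and 189 CPM at 7 weeks. For Gata4 the log2 fold change was 1.23 ± 0.24 (adjusted p = 0.000275), against 0.48, adjusted p = 0.166 with total counts. The homeobox gene Onecut2 stood at 35.7 to 107 CPM at 2 weeks and 111 to 199 CPM at 7 weeks. Onecut2 gave a log2 fold change of 1.33 ± 0.28 (adjusted p = 0.000422). Age and the stretch of gut sampled cannot be told apart here, and this holds for each gene group below whose level differs along the gut; the part of the stomach and pancreas transcripts in the results below was not tested.

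**Figure D2:**
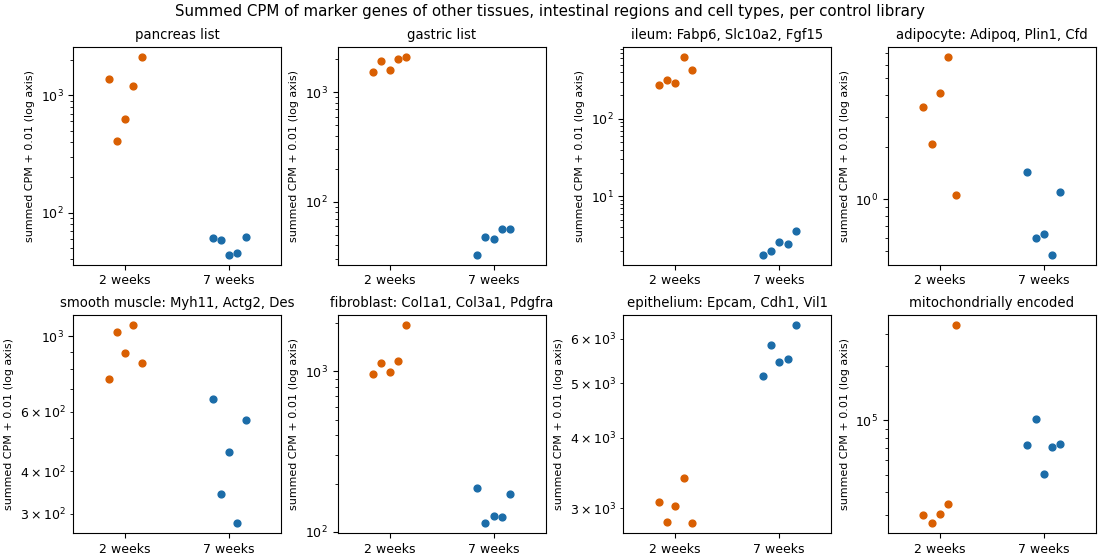
Summed CPM (log axis, 0.01 added) of marker genes in each of the 5 libraries of 2 weeks (orange) and 7 weeks (blue), 1 point per library. The pancreas, gastric and ileum genes were higher in every 2-week library than in any 7-week library. Epithelial genes were lower at 2 weeks with the TMM scaling used here. The mitochondrially encoded genes of 2-week library 5 lie far above the rest.

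The sugar-digesting genes of the brush border rose as a group. Of 13 disaccharidase and sugar transporter genes, 12 rose and 1, the glucose transporter gene Slc2a1, fell (8 and 1 with total counts), with a median log2 fold change of 1.64 (0.89 with total counts). Sis, sucrase-isomaltase, the enzyme that splits sucrose and starch fragments, stood at 582, 604, 544, 761 and 1500.4 CPM at 2 weeks and 3399, 3531, 2707, 3302 and 3868 CPM at 7 weeks. Sis had a log2 fold change of 2.07 ± 0.72 (adjusted p = 0.0167). The groups did not overlap, and 2-week library 5 was the highest of its age. Sis did not pass with total counts (1.504, adjusted p = 0.0563), and DESeq2 gave no adjusted p for it (log2 fold change 2.06). Treh, trehalase, which splits the sugar of fungi and insects, stood at 156, 124, 156, 192 and 47.7 CPM at 2 weeks and 916, 1137, 996, 1158 and 1217 CPM at 7 weeks. For Treh the log2 fold change was 3.00 ± 0.41 (adjusted p = 6.88e-06). Mgam, maltase-glucoamylase, stood at 673, 631, 735, 1026 and 2053 CPM at 2 weeks and 1991, 2414, 2044, 2226 and 2326 CPM at 7 weeks. Mgam gave a log2 fold change of 1.10 ± 0.38 (adjusted p = 0.0169), against 0.55, adjusted p = 0.141 with total counts. The groups overlapped, since library 5 of 2 weeks reached the 7-week range.

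Lct, the lactase that splits milk sugar, was higher at 7 weeks. It stood at 1123, 1059, 1223, 1054 and 429 CPM at 2 weeks and 2387, 3280.4, 2608, 3219 and 3705 CPM at 7 weeks. Lct had a log2 fold change of 1.64 ± 0.24 (adjusted p = 1.5e-05), against 0.89, adjusted p = 0.00685 with total counts. Every 7-week library was above every 2-week library. Library 5 of 2 weeks was the lowest. Lactase is more abundant in the proximal than in the distal gut, and the ileal genes above moved the other way; their part in this result was not tested.

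Sugar transporters and the enzymes that use the sugars were higher as well. Slc2a5, the fructose transporter of the brush border, had the largest log2 fold change of the list, at 45, 37.8, 48.5, 45.9 and 15.9 CPM at 2 weeks and 1228, 1259.9, 1135, 1063 and 1104 CPM at 7 weeks. For Slc2a5 the log2 fold change was 4.90 ± 0.38 (adjusted p = 1.17e-08). Slc5a1, the sodium-coupled glucose transporter, stood at 922, 826, 893, 1047 and 1206 CPM at 2 weeks and 2096, 2179.9, 2291, 2168 and 2298 CPM at 7 weeks. Slc5a1 gave a log2 fold change of 1.17 ± 0.21 (adjusted p = 0.000108). Slc2a2, the basolateral glucose transporter, stood at 249.9 to 332 CPM at 2 weeks and 681 to 868 CPM at 7 weeks. Slc2a2 had a log2 fold change of 1.47 ± 0.19 (adjusted p = 3.02e-06). Of 9 genes of fructose and galactose metabolism, 7 rose and 0 fell (5 and 2 with total counts). Khk, ketohexokinase, which phosphorylates fructose, stood at 211, 189, 222, 207 and 28 CPM at 2 weeks and 1045, 1476, 1186, 1509.6 and 1215 CPM at 7 weeks. For Khk the log2 fold change was 2.91 ± 0.38 (adjusted p = 4.42e-06). Tkfc, the triose kinase of a later step, rose by 2.93 ± 0.34 on the log2 scale. The genes that passed in neither direction with TMM were Galk1 and Galt, the first enzymes of galactose breakdown. G6pc, the glucose-6-phosphatase that releases free glucose, stood at 61.3, 41.5, 61.3, 29.8 and 62.8 CPM at 2 weeks and 341, 612, 376, 356 and 231 CPM at 7 weeks. G6pc gave a log2 fold change of 2.90 ± 0.31 (adjusted p = 5.27e-07). 4 of 8 gluconeogenesis genes rose and 1 fell (1 and 3 with total counts).

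The promoters of 4 risen genes of sugar digestion and detoxification are shown as the regulatory sequence next to them. Each is the 250 bases before the start site from RefSeq on GRCm38.p6, 5′ to 3′ on the strand of the gene, with the capitals marking matches on either strand to 1 of 3 motifs: CAAAGTCCA for HNF4, GTTAAT for HNF1, and TTTATG for CDX. The motifs and the promoters were chosen after the matches had been seen.
Sis, chr3:72967864-72968113, minus strand: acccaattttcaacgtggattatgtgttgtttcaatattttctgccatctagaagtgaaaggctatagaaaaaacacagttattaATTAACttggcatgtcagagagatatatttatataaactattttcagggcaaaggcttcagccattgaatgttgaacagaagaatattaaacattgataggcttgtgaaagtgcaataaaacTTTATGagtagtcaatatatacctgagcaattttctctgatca
Lct, chr1:128328319-128328568, minus strand: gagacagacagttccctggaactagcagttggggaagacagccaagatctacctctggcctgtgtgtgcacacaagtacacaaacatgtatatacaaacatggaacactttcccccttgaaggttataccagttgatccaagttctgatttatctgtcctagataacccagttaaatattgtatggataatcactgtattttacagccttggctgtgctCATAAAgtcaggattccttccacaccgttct
Treh, chr9:44672983-44673232, plus strand: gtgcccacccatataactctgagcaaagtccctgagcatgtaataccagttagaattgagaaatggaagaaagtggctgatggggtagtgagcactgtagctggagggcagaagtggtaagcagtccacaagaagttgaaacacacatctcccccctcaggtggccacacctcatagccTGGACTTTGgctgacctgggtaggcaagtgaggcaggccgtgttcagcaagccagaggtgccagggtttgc
Cyp3a11, chr5:145879855-145880104, minus strand: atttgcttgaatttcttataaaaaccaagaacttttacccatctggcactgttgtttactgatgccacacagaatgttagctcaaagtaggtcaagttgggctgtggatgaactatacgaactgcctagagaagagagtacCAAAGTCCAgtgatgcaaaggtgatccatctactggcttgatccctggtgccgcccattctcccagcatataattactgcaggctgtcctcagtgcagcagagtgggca
Sis held the HNF1 letters and the CDX letters without overlap, Lct the CDX letters, and Treh and Cyp3a11 the HNF4 letters. Among promoters of the same length of 27025 genes, 0.451% held the HNF4 letters, 7.49% the HNF1 letters and 12.4% the CDX letters. Of 12 genes of the sugar list with a promoter in the table, 1, 1 and 2 held them, and of 23 cytochrome P450 genes 3, 3 and 2. These are matches of letters and were not tested against the fold changes.

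**Figure D3:**
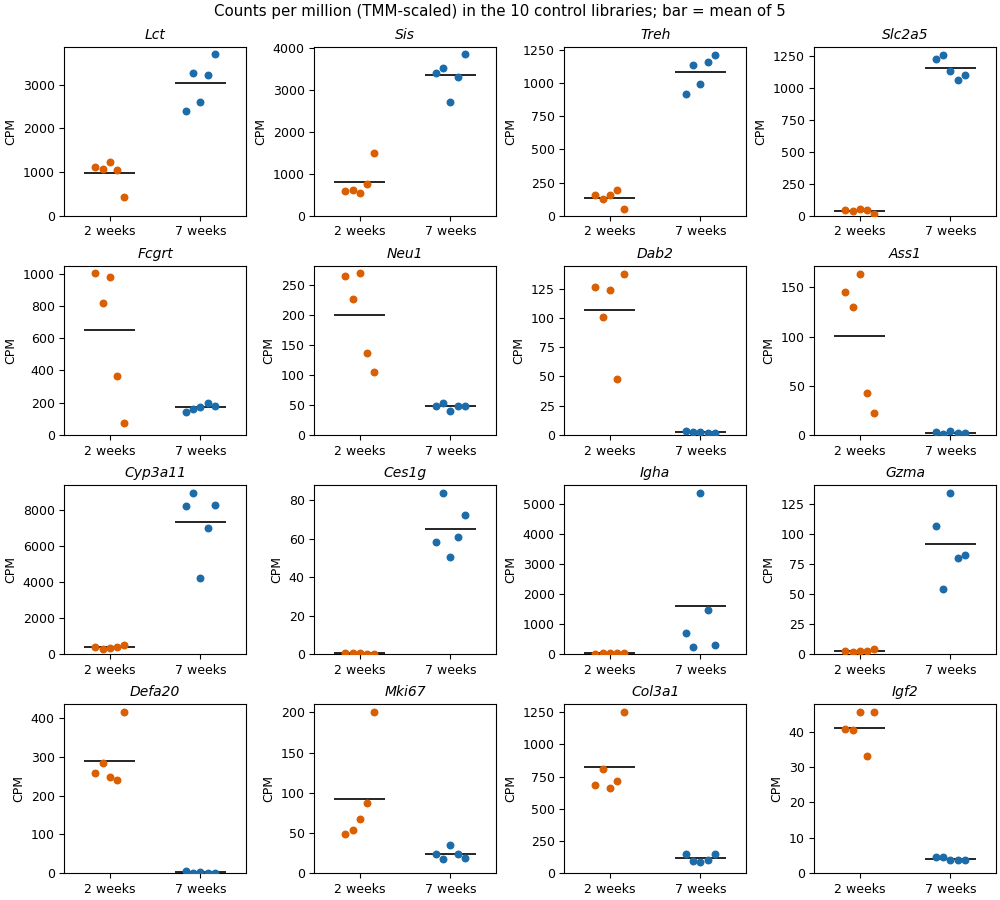
CPM (linear axes from 0) of 16 named genes in each of the 5 control libraries of 2 weeks (orange) and 7 weeks (blue), 1 point per library in the order of replicate number, with the mean of 5 as a bar. Sugar, detoxification and immune genes (Sis, Treh, Slc2a5, Cyp3a11, Ces1g, Igha and Gzma) were higher at 7 weeks, and genes of milk protein uptake, urea-cycle chemistry, division and growth (Dab2, Ass1, Mki67 and Igf2) were lower; Fcgrt of 2-week library 5 lies below all 7-week points.

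Most genes of milk protein uptake fell. Of 12 genes of this endocytic route, 7 fell and 3 rose (8 and 1 with total counts), with a median of -1.44 (-2.10 with total counts). Dab2, the adaptor that sorts cargo receptors into coated vesicles, stood at 126, 100.3, 124, 47.6 and 137 CPM at 2 weeks and 3.22, 2.11, 2.72, 1.75 and 1.61 CPM at 7 weeks. Dab2 had a log2 fold change of -5.54 ± 0.36 (adjusted p = 2.55e-09). Lgmn, the lysosomal protease legumain, stood at 719, 552, 595, 205 and 327 CPM at 2 weeks and 55.2, 63.6, 58.9, 66.9 and 46.5 CPM at 7 weeks. For Lgmn the log2 fold change was -3.04 ± 0.30 (adjusted p = 1.97e-07). Mamdc4, the apical endosome protein of suckling enterocytes, is not among the 12 and stood at 552, 526, 694, 129.7 and 15.9 CPM at 2 weeks and 0.431, 0.638, 0.722, 0.623 and 0.724 CPM at 7 weeks. Mamdc4 gave a log2 fold change of -9.25 ± 0.80 (adjusted p = 3.84e-08). No groups overlapped for these 3 genes, and libraries 4 and 5 of 2 weeks were lower than libraries 1 to 3 for Mamdc4.

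Fcgrt, the neonatal Fc receptor for antibodies from milk, stood at 1001, 819, 981, 364 and 76 CPM at 2 weeks and 141, 162, 175, 196 and 176 CPM at 7 weeks. Fcgrt had a log2 fold change of -1.93 ± 0.47 (adjusted p = 0.00149). Its groups overlapped, since library 5 of 2 weeks was below all 7-week libraries. Cubn, the receptor cubilin, stood at 217, 195, 257, 252 and 329.8 CPM at 2 weeks and 73.4, 163, 51.9, 104 and 182 CPM at 7 weeks. For Cubn the log2 fold change was -1.13 ± 0.43 (adjusted p = 0.0302). That call was lost without 2-week library 5 or without 7-week library 1, 3 or 4, at log2 fold changes of -1.01, -0.999, -0.94 and -1.09. Lrp2, the receptor megalin, was near 0 at both ages, at 0.154 to 0.455 CPM at 2 weeks and 0 to 0.147 CPM at 7 weeks. Lrp2 gave a log2 fold change of -3.17 ± 0.72 (adjusted p = 0.000919), against -4.65 without 7-week library 2. Meltf, a membrane-bound iron-binding protein that is not among the 12 either, fell from levels of 62 to 789 CPM to at most 0.0995 CPM (log2 fold change -13.54 ± 0.85, adjusted p = 2.16e-09; -14.37 without 7-week library 1). Of the 12, those that rose were the clathrin light chain genes Clta and Cltb and the phospholipase-like gene Pla2g12b.

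Lysosomal hydrolases fell in part. Of 31 tested, 16 fell, 2 rose and 13 did not pass (24 fell and 0 rose with total counts), with a median of -0.63. Neu1, the sialidase that trims milk oligosaccharides and glycoproteins, stood at 266, 227, 271, 136 and 105 CPM at 2 weeks and 48.1, 53.3, 40.6, 48.9 and 48.6 CPM at 7 weeks. Neu1 had a log2 fold change of -2.07 ± 0.24 (adjusted p = 9.48e-07). Glb1, the lysosomal beta-galactosidase, stood at 127, 120.2, 136, 61 and 35.7 CPM at 2 weeks and 16.2, 17.9, 20.8, 20 and 18.9 CPM at 7 weeks. For Glb1 the log2 fold change was -2.36 ± 0.30 (adjusted p = 3.61e-06). Ctsl, the protease cathepsin L, stood at 159 to 383 CPM at 2 weeks and 79.5 to 127 CPM at 7 weeks. Ctsl gave a log2 fold change of -1.57 ± 0.32 (adjusted p = 0.000376). Tpp1, a tripeptide-cleaving protease, stood at 68.1 to 159 CPM at 2 weeks and 36.6 to 40.6 CPM at 7 weeks. Tpp1 had a log2 fold change of -1.30 ± 0.17 (adjusted p = 5.42e-06). Those that rose were the proteases Ctsc and Ctsz. Of 16 lysosomal membrane and biogenesis genes, 3 rose and 2 fell (0 and 11 with total counts, and 5 and 4 without 2-week library 5). The sialic acid exporter gene Slc17a5 stood at 55.5 to 152 CPM at 2 weeks and 13.6 to 25.2 CPM at 7 weeks. For Slc17a5 the log2 fold change was -2.48 ± 0.33 (adjusted p = 5.39e-06). Tfe3, a transcription factor of lysosome genes, rose by 0.67 ± 0.22 with TMM and stood at -0.07 with total counts.

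Peptidases and amino acid carriers mostly rose. Of 13 brush border peptidase genes, 8 rose and 2 fell (3 and 3 with total counts). Mme, the membrane peptidase neprilysin, stood at 184, 168, 183, 236 and 535 CPM at 2 weeks and 1389, 1483, 1219.9, 1546 and 1904 CPM at 7 weeks. Mme gave a log2 fold change of 2.53 ± 0.33 (adjusted p = 3.69e-06). Ggt1, gamma-glutamyltransferase, stood at 128 to 386 CPM at 2 weeks and 1099.8 to 1360.0 CPM at 7 weeks. Ggt1 had a log2 fold change of 2.22 ± 0.38 (adjusted p = 6.55e-05). Mep1a, a subunit of the secreted and membrane-bound protease meprin, went the other way, at 340.1, 286, 312, 299 and 216 CPM at 2 weeks and 88.5, 96, 72.6, 85 and 116 CPM at 7 weeks. For Mep1a the log2 fold change was -1.67 ± 0.20 (adjusted p = 1.7e-06). Of 15 amino acid and peptide carriers, 9 rose and 3 fell (6 and 4 with total counts, where the median changed from 0.70 to -0.04). Slc16a10, the exporter of aromatic amino acids, rose by 1.59 ± 0.16 and Slc3a1, part of the cystine carrier, by 1.31 ± 0.17, while the glutamine carrier gene Slc38a3 fell (-4.11 ± 0.52, adjusted p = 2.81e-06).

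Several genes of citrulline and arginine synthesis fell. Suckling enterocytes make citrulline and arginine, which milk supplies sparsely. Of 14 genes around arginine and citrulline, 6 fell and 4 rose (10 and 0 with total counts). Ass1, argininosuccinate synthase, stood at 145, 130.3, 164, 42.9 and 21.9 CPM at 2 weeks and 2.59, 1.13, 3.74, 1.83 and 2.05 CPM at 7 weeks. Ass1 gave a log2 fold change of -5.46 ± 0.59 (adjusted p = 4.88e-07). Cps1, carbamoyl phosphate synthetase, stood at 633, 618, 596, 556 and 840.0 CPM at 2 weeks and 289, 203, 370.5, 208 and 248 CPM at 7 weeks. Cps1 had a log2 fold change of -1.30 ± 0.34 (adjusted p = 0.00299). Oat, ornithine aminotransferase, stood at 699.8 to 1227 CPM at 2 weeks and 255 to 354 CPM at 7 weeks. For Oat the log2 fold change was -1.70 ± 0.25 (adjusted p = 1.69e-05). Pycr1, of proline synthesis, stood at 1.85 to 4.13 CPM at 2 weeks and 0.441 to 1.08 CPM at 7 weeks. Pycr1 gave a log2 fold change of -2.11 ± 0.32 (adjusted p = 1.81e-05). No library of 2 weeks was below a 7-week library for any of these 4 genes. Arg2, the arginase of weaned enterocytes, stood at 211, 178, 196, 227 and 165 CPM at 2 weeks and 655, 681, 785, 763 and 783 CPM at 7 weeks. Arg2 had a log2 fold change of 1.91 ± 0.54 (adjusted p = 0.00488), against 1.23, adjusted p = 0.0524 with total counts.

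Genes of fat absorption rose as a group. Of 19 genes of chylomicron assembly, the packing of dietary fat into lipoproteins, 16 rose and 1, the pancreatic colipase gene Clps, fell (12 and 2 with total counts), with a median of 1.44 (0.69 with total counts). Fabp1, a fatty acid binding protein, stood at 678, 713, 712, 742 and 803 CPM at 2 weeks and 4629.8, 4422, 3321, 3846 and 4006 CPM at 7 weeks. For Fabp1 the log2 fold change was 2.47 ± 0.19 (adjusted p = 1.01e-08). Slc27a4, a fatty acid transport protein, stood at 410.1, 387, 408, 432 and 77 CPM at 2 weeks and 1871, 2029, 1744, 2117 and 2151 CPM at 7 weeks. Slc27a4 gave a log2 fold change of 2.53 ± 0.32 (adjusted p = 3.07e-06). Npc1l1, the cholesterol uptake receptor, stood at 158 to 339 CPM at 2 weeks and 786 to 1254 CPM at 7 weeks. Npc1l1 had a log2 fold change of 1.92 ± 0.24 (adjusted p = 3.14e-06). The 2 ages did not overlap for these 3 genes.

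Genes of fatty acid oxidation and ketone body synthesis were split. Of 18 in that list, 9 rose and 5 fell (4 and 7 with total counts, with medians of 0.55 and -0.13). Cpt1a, which admits fatty acids to mitochondria, fell by 1.43 on the log2 scale (SE 0.226), while the dehydrogenase gene Hadh rose by 1.53 ± 0.20. Pdk4, which restrains pyruvate oxidation, stood at 60.5 to 126 CPM at 2 weeks and 83.8 to 145 CPM at 7 weeks. Pdk4 gave a log2 fold change of 0.53 ± 0.27 (adjusted p = 0.096), against -0.09 with total counts, and 0.74 with a passed test without 2-week library 5.

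Fatty acid synthesis genes were more often lower. Of 14, 8 fell and 3 rose (10 and 0 with total counts), with Scd2, a desaturase, at 43.3 to 109 CPM at 2 weeks and 8.89 to 23.9 CPM at 7 weeks (log2 fold change -2.46 ± 0.34, adjusted p = 7.77e-06) and Acly, which makes acetyl-CoA from citrate, at 31.1 to 58.6 CPM at 2 weeks and 23.6 to 35.9 CPM at 7 weeks. Acly had a log2 fold change of -0.84 ± 0.18 (adjusted p = 0.000649). Cholesterol synthesis was mixed: 4 of 21 genes rose and 3 fell (2 and 8 with total counts, and 8 and 3 without 2-week library 5). Insig1, the sterol sensor that restrains the pathway, rose by 1.68 ± 0.18. Of 11 genes of bile acid handling, 6 fell and 3 rose (7 and 2 with total counts). Those that rose were Abcc2, Abcc3 and Nr0b2. Abcc3, a basolateral bile acid and drug exporter, stood at 37.1, 35.1, 36.8, 48.7 and 13.2 CPM at 2 weeks and 199, 166, 185, 169 and 209 CPM at 7 weeks. Abcc3 gave a log2 fold change of 2.44 ± 0.27 (adjusted p = 7.2e-07). Nr0b2, the repressor SHP that bile acids induce through FXR, stood at 2.98 to 8.01 CPM at 2 weeks and 17.5 to 24.5 CPM at 7 weeks. Nr0b2 had a log2 fold change of 1.86 ± 0.20 (adjusted p = 4.79e-07).

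The enzymes that clear foreign chemicals rose as a group. Of 25 cytochrome P450 genes tested (28 in the table), 20 rose and 0 fell (18 and 0 with total counts), with a median of 2.45 (1.83 with total counts); DESeq2 called 21 higher and limma-voom 22, and neither called any lower. Over the whole P450 family, 56 genes were tested, of which 27 rose and 12 fell. Cyp3a11, the main drug-oxidising P450 of the gut and liver, stood at 365, 248, 322, 362 and 498 CPM at 2 weeks and 8204, 8919, 4202, 6996 and 8229 CPM at 7 weeks. For Cyp3a11 the log2 fold change was 4.35 ± 0.46 (adjusted p = 4.44e-07). Cyp2c29 stood at 0.252, 0.529, 0.546, 2.22 and 2.58 CPM at 2 weeks and 713, 1030.0, 589, 773 and 1172 CPM at 7 weeks. Cyp2c29 gave a log2 fold change of 9.57 ± 0.88 (adjusted p = 8.36e-08). Cyp1a1, which the aryl hydrocarbon receptor induces, stood at 0.0387, 0.023, 0.0227, 1.52 and 1.69 CPM at 2 weeks and 211, 346, 147, 252 and 191 CPM at 7 weeks. Cyp1a1 had a log2 fold change of 8.71 ± 0.86 (adjusted p = 1.86e-07), against 10 without 2-week library 4. Cyp2b10, which the receptor CAR induces, stood at 12, 9.22, 12.8, 35.6 and 33.8 CPM at 2 weeks and 1263, 1323, 1089.9, 1274 and 1577 CPM at 7 weeks. For Cyp2b10 the log2 fold change was 5.99 ± 0.89 (adjusted p = 1.64e-05). For Cyp2c29, Cyp1a1 and Cyp2b10, libraries 4 and 5 of 2 weeks were above libraries 1 to 3 while still far below every 7-week library.

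Conjugating enzymes, which attach glutathione, glucuronic acid or sulfate, rose in 25 of 27 genes, and the sulfotransferase genes Sult1a1 and Sult1c2 fell (21 and 2 with total counts). Gstm1, a glutathione transferase, stood at 36.2, 36.9, 43.8, 51.9 and 32.8 CPM at 2 weeks and 1249, 1040.2, 515, 869 and 987 CPM at 7 weeks. Gstm1 gave a log2 fold change of 4.53 ± 0.30 (adjusted p = 2.55e-09). Gstt1 stood at 20.3, 18.3, 18.1, 22.1 and 25.4 CPM at 2 weeks and 182, 199.6, 209, 191 and 202 CPM at 7 weeks. Gstt1 had a log2 fold change of 3.24 ± 0.17 (adjusted p = 1.96e-10). Ugt1a9, a glucuronosyltransferase that is not among the 27, stood at 0.966 to 1.78 CPM at 2 weeks and 78.3 to 211 CPM at 7 weeks. For Ugt1a9 the log2 fold change was 6.71 ± 0.59 (adjusted p = 5.2e-08). Of 28 drug transporters, esterases and sensors, 21 rose and 2 fell (16 and 3 with total counts). The carboxylesterase Ces1g stood at 0.252, 0.322, 0.478, 0.176 and 0 CPM at 2 weeks and 58.5, 83.8, 50.4, 60.8 and 72.4 CPM at 7 weeks (log2 fold change 7.86 ± 0.40, adjusted p = 1.66e-10). Ces1d stood at 1.53 to 2.81 CPM at 2 weeks and 27.5 to 71.4 CPM at 7 weeks. Ces1d gave a log2 fold change of 4.34 ± 0.29 (adjusted p = 2.55e-09). Ephx1, the microsomal epoxide hydrolase, stood at 8.69 to 16.4 CPM at 2 weeks and 170.2 to 286 CPM at 7 weeks. Ephx1 had a log2 fold change of 4.11 ± 0.35 (adjusted p = 3.89e-08). The Cyp2c, Cyp3a, Gstm, Ugt1a and Ces1 genes have near-identical copies between which reads may be split, so their single values are less certain than the sums of the families.

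Other transporters and enzymes of the epithelium were among the 12 largest rises or the named members of their lists. Slc28a1, a nucleoside transporter, stood at 2.07, 2.69, 3.25, 4.71 and 1.21 CPM at 2 weeks and 187, 164, 177, 216 and 241 CPM at 7 weeks. For Slc28a1 the log2 fold change was 6.11 ± 0.47 (adjusted p = 1.07e-08). Hsd17b6, a steroid dehydrogenase, stood at 2.83, 2.48, 2.68, 5.81 and 5.39 CPM at 2 weeks and 263, 263, 262, 246 and 268 CPM at 7 weeks. Hsd17b6 gave a log2 fold change of 6.10 ± 0.59 (adjusted p = 1.37e-07). Car4, a carbonic anhydrase of the brush border, stood at 1.21 to 2.33 CPM at 2 weeks and 42.3 to 96 CPM at 7 weeks. Car4 had a log2 fold change of 5.18 ± 0.38 (adjusted p = 5.87e-09). Slc22a13b, an organic anion transporter, stood at 0.241 to 0.887 CPM at 2 weeks and 15.8 to 30.8 CPM at 7 weeks. For Slc22a13b the log2 fold change was 5.43 ± 0.37 (adjusted p = 3.57e-09). The groups did not overlap for any of these 4 genes.

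Genes of mineral uptake were more often lower. Of 17 calcium, phosphate and iron genes tested, 9 fell and 4 rose (13 and 1 with total counts). Slc11a2, the brush border importer of ferrous iron, stood at 1455, 1129, 1329.7, 1321 and 3667 CPM at 2 weeks and 67.1, 74.1, 101, 84.5 and 72.6 CPM at 7 weeks. Slc11a2 gave a log2 fold change of -4.48 ± 0.47 (adjusted p = 3.39e-07). Fth1, the heavy chain of the iron store ferritin, rose and stood at 3112 to 5164 CPM at 2 weeks and 10230.0 to 12996 CPM at 7 weeks. Fth1 had a log2 fold change of 1.64 ± 0.21 (adjusted p = 3.06e-06). Trpv6, the calcium channel of the brush border, stood at 152, 95.2, 117, 137 and 33.2 CPM at 2 weeks and 1.86, 3.38, 10.4, 9.89 and 5.15 CPM at 7 weeks. For Trpv6 the log2 fold change was -4.12 ± 1.36 (adjusted p = 0.0131). S100g, calbindin-D9k, which ferries calcium through the cell, stood at 1205, 1012, 1138, 1380.4 and 2829 CPM at 2 weeks and 130.0, 173, 277, 386 and 244 CPM at 7 weeks. S100g gave a log2 fold change of -2.64 ± 0.95 (adjusted p = 0.0212). Slc34a3, a phosphate cotransporter, stood at 0.724 to 10.7 CPM at 2 weeks and 0.0389 to 0.197 CPM at 7 weeks. Slc34a3 had a log2 fold change of -6.04 ± 0.67 (adjusted p = 6.57e-07). The 2 ages did not overlap for any of these 5 genes. The iron reductase gene Cybrd1 and the iron exporter gene Slc40a1, chosen after their values were seen, are also in the proximal list and fell (-3.08 ± 0.58, adjusted p = 0.000171, and -2.83 ± 0.77, adjusted p = 0.00344), as did the pepsinogen gene Pgc, while 10 of its 15 genes rose.

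Ion transport and tight junction genes were mixed. Of 21 ion transport genes, 13 rose and 4 fell (8 and 6 with total counts). Slc9a3, the sodium-hydrogen exchanger of the brush border, stood at 118, 99.4, 103, 92.9 and 72.8 CPM at 2 weeks and 402, 409, 447, 441 and 443 CPM at 7 weeks. For Slc9a3 the log2 fold change was 2.14 ± 0.16 (adjusted p = 8.22e-09). Guca2a, guanylin, which drives chloride secretion, fell and stood at 247, 228, 248, 186 and 138 CPM at 2 weeks and 36.1, 45.9, 29.2, 32 and 30.6 CPM at 7 weeks. Guca2a gave a log2 fold change of -2.59 ± 0.19 (adjusted p = 7.36e-09). Of 18 tight junction genes, 10 rose and 5 fell (6 and 8 with total counts, where the median turned from 0.57 to -0.14). Cldn15, a claudin of sodium-permeable pores, stood at 186, 188, 187, 211 and 53.4 CPM at 2 weeks and 772, 916, 815, 977 and 947 CPM at 7 weeks (log2 fold change 2.42 ± 0.31, adjusted p = 3.01e-06). Cldn8, a sealing claudin of the distal gut, stood at 20.6, 18, 18.2, 10.3 and 16.5 CPM at 2 weeks and 0.696, 0.49, 0.459, 0.467 and 0.443 CPM at 7 weeks. Cldn8 had a log2 fold change of -5.02 ± 0.45 (adjusted p = 5.46e-08).

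Of 30 transcription factor genes of the gut epithelium, 15 rose and 4 fell with TMM, where 27.1% of all genes rose and 34.4% fell. With total counts 3 rose and 8 fell, where 9.46% of all genes rose and 56.8% fell. The median log2 fold change of the list was 0.63 with TMM and 0.0025 with total counts, against -0.13 and -0.79 over all genes. Prdm1, BLIMP1, which holds the suckling program in mice, stood at 23.8, 20.9, 29.6, 12.3 and 12.7 CPM at 2 weeks and 28.6, 32.7, 17.8, 26.4 and 32.7 CPM at 7 weeks. For Prdm1 the log2 fold change was 0.47 ± 0.30 (adjusted p = 0.184), against -0.25 with total counts, and its groups overlapped. Klf4, a factor of differentiated epithelium, stood at 161 to 216 CPM at 2 weeks and 384 to 706 CPM at 7 weeks. Klf4 had a log2 fold change of 1.65 ± 0.28 (adjusted p = 5.36e-05). Isx, which responds to retinoic acid, stood at 61 to 69.2 CPM at 2 weeks and 106 to 147 CPM at 7 weeks. For Isx the log2 fold change was 0.97 ± 0.11 (adjusted p = 6.69e-07), against 0.30, adjusted p = 0.0788 with total counts. Foxa1 stood at 14 to 37.3 CPM at 2 weeks and 4.2 to 7.5 CPM at 7 weeks. Foxa1 gave a log2 fold change of -1.67 ± 0.26 (adjusted p = 2.42e-05). In the retinoid list 9 of 20 genes rose and 6 fell (8 and 10 with total counts): Rbp2, the retinol-binding protein of enterocytes, stood at 1353 to 1724 CPM at 2 weeks and 5502 to 6191 CPM at 7 weeks (log2 fold change 1.87 ± 0.19, adjusted p = 2.14e-07). Stra6l, a receptor-like gene for retinol-binding protein, stood at 17.5 to 59.4 CPM at 2 weeks and 1.57 to 3.12 CPM at 7 weeks. Stra6l had a log2 fold change of -4.22 ± 0.34 (adjusted p = 1.65e-08).

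The sugar caps of epithelial glycoproteins are known to change at weaning from sialic acid to fucose. Of 16 genes of this list, 4 rose and 3 fell (3 and 8 with total counts). Fut2, the fucosyltransferase of the gut lining, was lower at 7 weeks, at 4.13, 4.51, 3.68, 4.07 and 4.75 CPM at 2 weeks and 1.03, 0.883, 1.97, 1.87 and 1.73 CPM at 7 weeks. For Fut2 the log2 fold change was -1.49 ± 0.33 (adjusted p = 0.000789). St6gal1, a sialyltransferase of suckling, stood at 6.41, 6.23, 5.53, 5.55 and 2.66 CPM at 2 weeks and 4.44, 0.981, 13.5, 3.97 and 2.01 CPM at 7 weeks. St6gal1 gave a log2 fold change of -0.09 ± 0.50 (adjusted p = 0.891), against -0.89 without 7-week library 3, with overlapping groups. St3gal3, another sialyltransferase, stood at 13.4 to 29.8 CPM at 2 weeks and 2.06 to 3.51 CPM at 7 weeks. St3gal3 had a log2 fold change of -3.08 ± 0.29 (adjusted p = 1.31e-07). St3gal4 and the galactosyltransferase gene B4galt1 rose by 1.81 ± 0.24 and 1.64 ± 0.19.

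**Figure D4:**
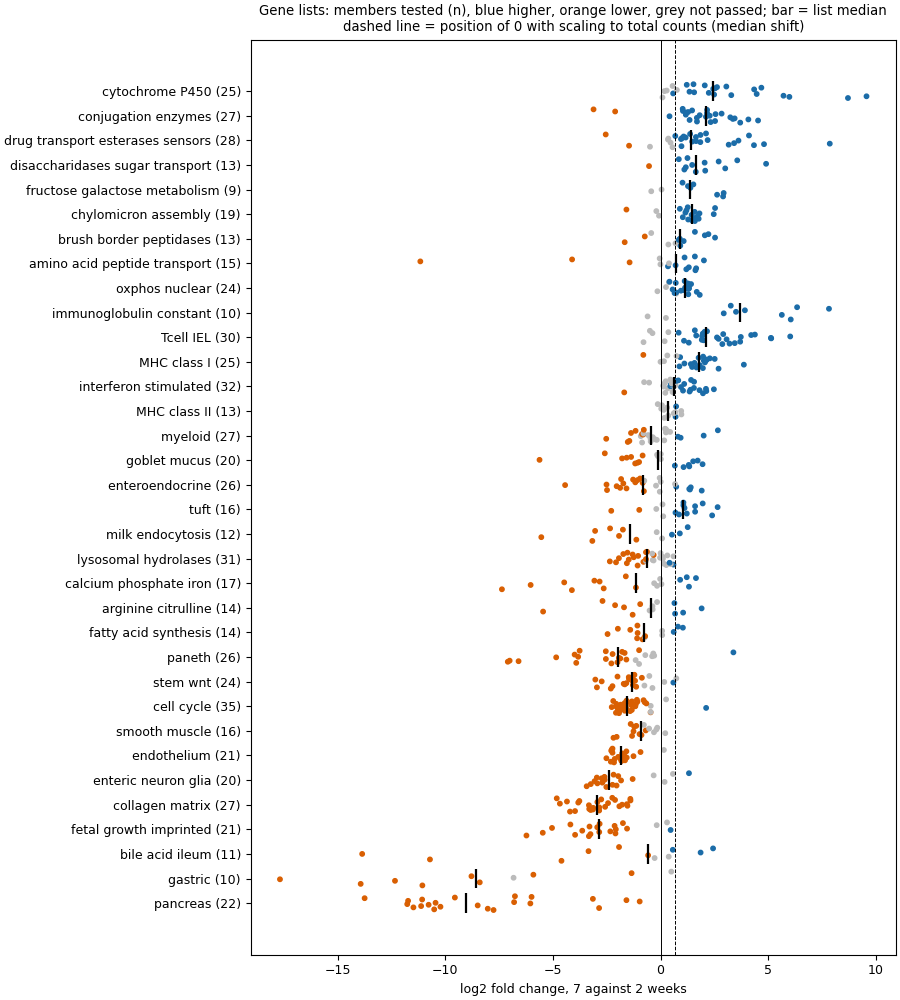
Log2 fold change of 7 against 2 weeks (horizontal axis) of each tested member of 34 gene lists, 1 point per gene; blue points rose, orange points fell, grey points did not pass, and the black bar is the list's median. The solid line is 0 and the dashed line the place of 0 with total counts. The medians of the P450, conjugation and sugar lists lie right of both lines and those of the collagen, cell cycle and growth lists left of both; values of genes at 0 counts at one age depend on the prior count.

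Paneth cell genes were lower at 7 weeks. Paneth cells sit at the base of the crypts, secrete antimicrobial peptides and appear in mice in the first weeks of life. Of 26 Paneth genes, 19 fell and 1, the pentraxin Mptx2, rose (23 and 1 with total counts), with a median of -1.97. The defensin Defa20 stood at 258, 284, 248, 241 and 416 CPM at 2 weeks and 4.44, 1.13, 2.33, 1.01 and 1.49 CPM at 7 weeks. For Defa20 the log2 fold change was -7.10 ± 0.60 (adjusted p = 3.09e-08). Defa21 stood at 139.8, 150.0, 118, 133 and 148 CPM at 2 weeks and 3.25, 0.638, 1.28, 0.895 and 0.885 CPM at 7 weeks. Defa21 gave a log2 fold change of -6.60 ± 0.60 (adjusted p = 6.81e-08), against -7.19 without 7-week library 1. Lyz1, the Paneth cell lysozyme, stood at 576, 514, 403, 422 and 487 CPM at 2 weeks and 598, 131, 181, 102 and 188 CPM at 7 weeks (log2 fold change -0.999 ± 0.64, adjusted p = 0.181), and it passed without 7-week library 1 (-1.67, adjusted p = 0.0335) and with total counts (-1.63, adjusted p = 0.0481). Over the alpha-defensin family 20 of 25 genes fell and 0 rose; the family took 0.341% to 0.44% of counts at 2 weeks and 0.0189% to 0.106% at 7 weeks. Library 1 was the highest 7-week library for Lyz1, Defa20 and Defa21. Alpha-defensins have near-identical copies, and the ileal genes fell beside them.

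Goblet cells, which secrete mucus, gave a mixed list: 7 of 20 genes rose and 9 fell (2 and 12 with total counts). Muc2, the gel-forming mucin, stood at 183, 158, 256, 418 and 307 CPM at 2 weeks and 433, 735, 361, 620.2 and 622 CPM at 7 weeks. Muc2 had a log2 fold change of 1.07 ± 0.27 (adjusted p = 0.00235), against 0.40, adjusted p = 0.157 with total counts, with overlapping groups. Muc13, a membrane mucin of all enterocytes, rose by 1.51 ± 0.19, and Creb3l1, a secretory factor, fell, at 20.9 to 34.6 CPM at 2 weeks and 6.6 to 8.09 CPM at 7 weeks. For Creb3l1 the log2 fold change was -1.79 ± 0.17 (adjusted p = 1.7e-07). Among antimicrobial lectins and related genes, 5 of 15 rose and 3 fell (4 and 5 with total counts, and 8 and 3 without 2-week library 5). Reg1, a member of the regenerating gene family, stood at 356, 347, 378, 359 and 547 CPM at 2 weeks and 2179, 2153, 2138, 2724 and 2814 CPM at 7 weeks. Reg1 gave a log2 fold change of 2.60 ± 0.34 (adjusted p = 4.55e-06). Reg3g, a lectin that kills Gram-positive bacteria, stood at 39.7, 37.6, 31.3, 66.8 and 108 CPM at 2 weeks and 360.5, 95, 139, 96.7 and 82.6 CPM at 7 weeks. Reg3g had a log2 fold change of 1.45 ± 0.73 (adjusted p = 0.0882), against 1.82 with a passed test without 2-week library 5.

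Enteroendocrine genes parted by hormone. Of 26, 15 fell and 5 (Cck, Gip, Ghrl, Sct and Sst) rose (19 and 4 with total counts). Cck, a hormone of the proximal gut, stood at 20.7, 21.4, 23.8, 23.5 and 19.2 CPM at 2 weeks and 82.9, 69, 97.2, 75.6 and 85.1 CPM at 7 weeks (log2 fold change 1.91 ± 0.14, adjusted p = 4.82e-09). Gip, another, stood at 29.9 to 40 CPM at 2 weeks and 84.1 to 96 CPM at 7 weeks. For Gip the log2 fold change was 1.36 ± 0.15 (adjusted p = 6.59e-07). Ghrl, ghrelin, stood at 4.43 to 9.24 CPM at 2 weeks and 15.6 to 23.9 CPM at 7 weeks. Ghrl gave a log2 fold change of 1.33 ± 0.19 (adjusted p = 1.13e-05). Pyy, a hormone of the distal gut, fell, at 9.94, 9.34, 8.85, 9.13 and 7.57 CPM at 2 weeks and 2.32, 4.07, 2.07, 1.99 and 1.81 CPM at 7 weeks. Pyy had a log2 fold change of -1.88 ± 0.28 (adjusted p = 1.91e-05). Of 16 tuft cell genes, which mark the chemosensory cells of the epithelium, 11 rose and 2 fell (5 and 3 with total counts). Sh2d6 stood at 0.805 to 2.29 CPM at 2 weeks and 8.09 to 16.5 CPM at 7 weeks. For Sh2d6 the log2 fold change was 2.65 ± 0.32 (adjusted p = 1.77e-06). Hpgds, a prostaglandin D synthase, stood at 8.03 to 18.2 CPM at 2 weeks and 1.77 to 3.84 CPM at 7 weeks. Hpgds gave a log2 fold change of -2.29 ± 0.28 (adjusted p = 2.39e-06).

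Genes of stem cells and of the cell cycle fell. Of 24 stem cell and Wnt genes, 18 fell and 1, Bmi1, rose (21 and 0 with total counts), with a median of -1.32. Lgr5, the receptor of crypt base stem cells, stood at 9.78, 10.9, 9.57, 8.98 and 36.8 CPM at 2 weeks and 4.05, 2.01, 2.23, 3.74 and 3.06 CPM at 7 weeks. Lgr5 had a log2 fold change of -2.31 ± 0.38 (adjusted p = 4.64e-05), against -1.70 without 2-week library 5. Axin2, a Wnt target, stood at 50.3, 51.4, 52.3, 47.7 and 21.1 CPM at 2 weeks and 12.3, 6.72, 10.4, 8.29 and 9.54 CPM at 7 weeks. For Axin2 the log2 fold change was -2.24 ± 0.25 (adjusted p = 8.97e-07). Tert, the catalytic subunit of telomerase, stood at 5.61 to 9.42 CPM at 2 weeks and 0.929 to 1.37 CPM at 7 weeks. Tert gave a log2 fold change of -2.74 ± 0.23 (adjusted p = 2.79e-08). Of 35 cell cycle genes, 31 fell and 1 rose (33 and 1 with total counts), with a median of -1.56. Mki67, the proliferation antigen Ki-67, stood at 49, 54.1, 67.3, 86.9 and 201 CPM at 2 weeks and 24.2, 18, 35.6, 23.4 and 18.6 CPM at 7 weeks. Mki67 had a log2 fold change of -1.93 ± 0.38 (adjusted p = 0.000272), with library 5 the highest at 2 weeks. Ccne2, cyclin E2, was the 1 gene of that list that rose, at 6.18, 7.31, 6.73, 6.65 and 11.9 CPM at 2 weeks and 28.3, 53.6, 21.1, 38.2 and 25.7 CPM at 7 weeks. For Ccne2 the log2 fold change was 2.12 ± 0.33 (adjusted p = 3e-05).

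Fetal growth genes fell. Of 21 fetal and imprinted genes tested, 18 fell and 1, Igf2r, the receptor that clears IGF2, rose (19 and 0 with total counts), with a median of -2.85. Igf2, the growth factor expressed from the paternal allele, stood at 40.7, 40.4, 45.6, 33.1 and 45.5 CPM at 2 weeks and 4.64, 4.66, 3.57, 3.78 and 3.74 CPM at 7 weeks. Igf2 gave a log2 fold change of -3.33 ± 0.21 (adjusted p = 2.55e-09). H19, the noncoding RNA of the same imprinted locus, stood at 33.7, 28.3, 33.1, 12.9 and 7.97 CPM at 2 weeks and 0.133, 0.294, 0.328, 0.272 and 0.523 CPM at 7 weeks. H19 had a log2 fold change of -6.23 ± 0.57 (adjusted p = 7.18e-08). Grb10, an imprinted inhibitor of insulin signalling, stood at 15 to 17.8 CPM at 2 weeks and 1.79 to 2.92 CPM at 7 weeks. For Grb10 the log2 fold change was -2.85 ± 0.31 (adjusted p = 5.34e-07). The RNA-binding protein genes of the fetal program were low: Igf2bp1 stood at 0 to 0.368 CPM at 2 weeks and 0 to 0.0995 CPM at 7 weeks (log2 fold change -2.14 ± 0.76, adjusted p = 0.0206) and that call was lost without 2-week library 2 (-1.92) or 7-week library 4 (-1.84), and Lin28b, with 1 count at 2 weeks and 3 at 7 weeks, was not tested.

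Genes of connective tissue fell. All 27 collagen and matrix genes fell with either scaling, with a median of -2.94. Col3a1, fibrillar collagen of soft tissue, stood at 683, 809, 658, 717 and 1254 CPM at 2 weeks and 148, 90.3, 86.7, 99.5 and 146 CPM at 7 weeks. Col3a1 gave a log2 fold change of -2.85 ± 0.28 (adjusted p = 2.05e-07). Postn, periostin, stood at 92.5, 111, 75.4, 79.9 and 249 CPM at 2 weeks and 8.09, 3.83, 5.05, 5.06 and 7.65 CPM at 7 weeks. Postn had a log2 fold change of -4.35 ± 0.42 (adjusted p = 1.31e-07). All collagen genes together took 0.334% to 0.392% of counts at 2 weeks and 0.0188% to 0.038% at 7 weeks. Of 16 smooth muscle genes 10 fell and 0 rose (14 and 0 with total counts), with Actg2, gut smooth muscle actin, at 265, 355, 286, 345 and 206 CPM at 2 weeks and 95.6, 41.5, 87.7, 45.3 and 84.3 CPM at 7 weeks. For Actg2 the log2 fold change was -2.04 ± 0.38 (adjusted p = 0.000146). Among neuron and glia genes 16 of 20 fell and 1, the receptor Erbb3, rose, with Ret, the receptor that enteric neurons need, at 43.8, 36.8, 39.8, 26.1 and 40.7 CPM at 2 weeks and 4.61, 5.15, 4.36, 4.79 and 5.51 CPM at 7 weeks. Ret gave a log2 fold change of -2.94 ± 0.19 (adjusted p = 2.55e-09). Of 21 endothelial genes 20 fell and 0 rose, with Cdh5, the cadherin of vessel walls, at 18.7 to 25.7 CPM at 2 weeks and 3.14 to 7.48 CPM at 7 weeks. Cdh5 had a log2 fold change of -2.31 ± 0.28 (adjusted p = 2.25e-06). Epithelial genes moved the other way beside them: 12 of 16 rose and 2 fell (3 and 2 with total counts). How much of the gut wall each sample held is not given, so the share of wall layers and age cannot be told apart.

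Antibody genes rose. Plasma cells, which are few in the gut before weaning, secrete IgA. Of 10 immunoglobulin constant genes tested, 8 rose and 0 fell, with either scaling. Of 348 variable segments, 58 had enough counts to be tested, of which 53 rose and 0 fell. All variable segments together took 0.000605% to 0.00143% of counts at 2 weeks and 0.00374% to 0.0861% at 7 weeks. Segments so low at 2 weeks could pass the filter mainly through 7-week libraries, so the lack of falls carries no weight. Igha, the heavy chain of IgA, stood at 14, 22.4, 28.4, 33.8 and 23 CPM at 2 weeks and 696, 244, 5363, 1451 and 298 CPM at 7 weeks. For Igha the log2 fold change was 6.05 ± 1.05 (adjusted p = 7.38e-05). Library 3 was the highest of the widely spread 7-week libraries (4.79 without it). Jchain, which joins IgA into dimers, stood at 3.18, 3.75, 5.03, 5 and 11.9 CPM at 2 weeks and 589, 312, 1061, 584 and 286 CPM at 7 weeks. Jchain gave a log2 fold change of 6.65 ± 0.72 (adjusted p = 5.38e-07). Iglc1, a lambda light chain, stood at 0.25 to 0.644 CPM at 2 weeks and 22.8 to 176 CPM at 7 weeks. Iglc1 had a log2 fold change of 7.83 ± 0.58 (adjusted p = 7.05e-09), against 7.24 without 7-week library 1. Mzb1 and Tnfrsf17, genes of plasma cells, rose by 4.13 ± 0.70 and 3.83 ± 0.66 (3.38 and 3.09 without 7-week library 3). Pigr, the receptor by which the epithelium exports IgA, stood at 667, 661, 743, 954 and 1867 CPM at 2 weeks and 4835, 4779, 6418, 6242 and 5053 CPM at 7 weeks. For Pigr the log2 fold change was 2.48 ± 0.39 (adjusted p = 2.59e-05). The B cell markers Ms4a1, Cd79a and Cr2 summed to 5.68 to 8.27 CPM at 2 weeks and to 1.09 to 31.1 CPM at 7 weeks, so these groups overlapped. Of the 21 B cell and plasma cell genes, 8 rose and 2 fell (4 and 2 with total counts, and 5 and 1 without 7-week library 3).

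T cell genes rose. Of 30 genes of T cells and intraepithelial lymphocytes tested, the T cells that lie between enterocytes, 25 rose and 0 fell (21 and 2 with total counts; DESeq2 called 1 lower and limma-voom 1 lower), with a median of 2.10. Cd8a, a co-receptor of killer T cells, stood at 1.36, 1.47, 1.3, 1.67 and 2.33 CPM at 2 weeks and 22.9, 14.2, 29.8, 17.7 and 18.5 CPM at 7 weeks. Cd8a gave a log2 fold change of 3.70 ± 0.34 (adjusted p = 8.36e-08). Gzma, granzyme A, stood at 2.52, 1.98, 2.21, 2.66 and 3.86 CPM at 2 weeks and 107, 54.4, 134, 80 and 82.2 CPM at 7 weeks. Gzma had a log2 fold change of 5.14 ± 0.37 (adjusted p = 4.97e-09). Ccl5, a chemokine of activated T cells, stood at 0.814, 0.92, 0.387, 0.946 and 0.322 CPM at 2 weeks and 48.6, 26.2, 75.9, 44.8 and 37.5 CPM at 7 weeks. For Ccl5 the log2 fold change was 6.02 ± 0.43 (adjusted p = 4.44e-09). Cd7 stood at 0.966 to 1.32 CPM at 2 weeks and 15.8 to 37.2 CPM at 7 weeks. Cd7 gave a log2 fold change of 4.38 ± 0.32 (adjusted p = 5.09e-09). Library 3 of 7 weeks was the highest for all 4, as it was for Igha and Jchain. Of 6 butyrophilin-like genes, which shape gamma-delta T cells of the gut, 5 rose and Btnl9 fell (3 and 1 with total counts; Btnl9 -3.13, and -3.84 without 7-week library 3). Btnl1 stood at 226, 192, 211, 218 and 83.3 CPM at 2 weeks and 471, 447, 476, 440.0 and 561 CPM at 7 weeks. Btnl1 had a log2 fold change of 1.36 ± 0.22 (adjusted p = 4.55e-05). Btnl2 stood at 84.6 to 101 CPM at 2 weeks and 236 to 294 CPM at 7 weeks (log2 fold change 1.51 ± 0.13, adjusted p = 4.12e-08) and Btnl4 at 5.23 to 33.8 CPM at 2 weeks and 46.2 to 61.5 CPM at 7 weeks. For Btnl4 the log2 fold change was 1.02 ± 0.29 (adjusted p = 0.0056), against 0.26, adjusted p = 0.512 with total counts.

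The genes of antigen presentation parted by class. Of 25 class I genes, which show peptides to CD8 T cells, 20 rose and 1, the lipid-presenting gene Cd1d1, fell (17 and 3 with total counts), with a median of 1.77. H2-K1, a classical class I heavy chain, stood at 706, 584, 655, 672 and 428 CPM at 2 weeks and 3374, 4398, 3538, 4342 and 4065 CPM at 7 weeks. H2-K1 gave a log2 fold change of 2.69 ± 0.20 (adjusted p = 7.71e-09). Tapbp, which loads the peptides, and Psmb9, an immunoproteasome subunit, rose by 2.14 ± 0.23 and 2.29 ± 0.19. Of 13 class II genes, 2 rose and 0 fell (0 and 2 with total counts), namely H2-Ab1 (0.70 ± 0.30, adjusted p = 0.0495) and Ciita (0.72 ± 0.30, adjusted p = 0.0428). Both calls were lost with total counts (0.10 and 0.04) and without any of several single libraries. H2-Aa, a class II alpha chain, stood at 94.7, 84.2, 87.3, 81.2 and 30.7 CPM at 2 weeks and 105, 50.9, 166, 60.3 and 45.4 CPM at 7 weeks. H2-Aa had a log2 fold change of 0.18 ± 0.38 (adjusted p = 0.707). Its sign turned with total counts (-0.51) and without 2-week library 5 (-0.02) or 7-week library 3 (-0.21). H2 genes have near-identical copies.

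Interferon-stimulated genes rose in part: 17 of 32 rose and 1, Ifit2, fell (10 and 5 with total counts, where the median turned from 0.64 to -0.06). Oasl1, an antiviral gene, stood at 25.2 to 63.5 CPM at 2 weeks and 159 to 241 CPM at 7 weeks (log2 fold change 2.11 ± 0.29, adjusted p = 7.11e-06). Ifit1bl1, another, stood at 16.3 to 32.4 CPM at 2 weeks and 70 to 133 CPM at 7 weeks. For Ifit1bl1 the log2 fold change was 2.13 ± 0.33 (adjusted p = 2.53e-05). Irf1, a factor of the interferon response, stood at 38.2 to 118 CPM at 2 weeks and 223 to 321 CPM at 7 weeks. Irf1 gave a log2 fold change of 1.65 ± 0.23 (adjusted p = 9.03e-06). In the list of interferon-induced GTPases and partners 7 of 19 rose and 2 fell (4 and 7 with total counts), with Igtp at 7.73 to 13 CPM at 2 weeks and 40.7 to 63.4 CPM at 7 weeks. Igtp had a log2 fold change of 2.15 ± 0.32 (adjusted p = 1.81e-05). Among myeloid genes 4 of 27 rose and 8 fell (2 and 14 with total counts), with Cx3cr1, a receptor of gut macrophages, at 11.8 to 18.1 CPM at 2 weeks and 2.46 to 8.43 CPM at 7 weeks (log2 fold change -1.45 ± 0.27, adjusted p = 0.000132). Cd209a, a lectin of dendritic cells, stood at 0.318 to 1.45 CPM at 2 weeks and 1.57 to 5.41 CPM at 7 weeks. For Cd209a the log2 fold change was 2.00 ± 0.40 (adjusted p = 0.000308).

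Cytokines and sensors of microbes were mixed. Of 25 cytokine and chemokine genes tested, 9 rose and 4 fell (6 and 8 with total counts). Tnfsf13b, BAFF, the survival factor of B cells, stood at 5.43 to 9.42 CPM at 2 weeks and 18.1 to 27.6 CPM at 7 weeks. Tnfsf13b gave a log2 fold change of 1.62 ± 0.20 (adjusted p = 2.81e-06). Cxcl12, a stromal chemokine, stood at 35.7 to 49.4 CPM at 2 weeks and 7.04 to 14.8 CPM at 7 weeks. Cxcl12 had a log2 fold change of -2.19 ± 0.23 (adjusted p = 3.16e-07). Of 36 pattern receptor and inflammasome genes, 11 rose and 13 fell (4 and 20 with total counts). Tlr5, the receptor of bacterial flagellin, stood at 2.69, 2.76, 2.39, 2.2 and 3.06 CPM at 2 weeks and 0.166, 0.049, 0.164, 0.0389 and 0.121 CPM at 7 weeks. For Tlr5 the log2 fold change was -4.50 ± 0.45 (adjusted p = 1.97e-07). Il18, an epithelial cytokine that inflammasomes release, stood at 11.6, 10.2, 11.2, 14.7 and 39.3 CPM at 2 weeks and 77, 92.8, 86.8, 76.5 and 75.3 CPM at 7 weeks. Il18 gave a log2 fold change of 2.25 ± 0.33 (adjusted p = 1.59e-05). Nlrc4, the inflammasome sensor of flagellin, stood at 32.5 to 40.1 CPM at 2 weeks and 60.1 to 90 CPM at 7 weeks. Nlrc4 had a log2 fold change of 1.05 ± 0.16 (adjusted p = 1.49e-05). Ido1, which degrades tryptophan and is not in the pattern receptor list, stood at 2.63, 1.4, 1.59, 4.18 and 12.9 CPM at 2 weeks and 51.5, 52.7, 37, 52.3 and 64 CPM at 7 weeks. For Ido1 the log2 fold change was 3.59 ± 0.64 (adjusted p = 9.22e-05), against 4.39 without 2-week library 5. Nox4, an oxidase that makes hydrogen peroxide, stood at 14.7, 19, 21.4, 11.6 and 48.7 CPM at 2 weeks and 0.464, 0.049, 0.0328, 0.545 and 0.483 CPM at 7 weeks. Nox4 gave a log2 fold change of -6.15 ± 0.62 (adjusted p = 2.14e-07). Duox2, the oxidase that faces the gut lumen, stood at 0.949, 1.4, 1.09, 3.7 and 2.09 CPM at 2 weeks and 3.05, 0.834, 1.84, 0.778 and 1.25 CPM at 7 weeks. Duox2 had a log2 fold change of -0.23 ± 0.74 (adjusted p = 0.803). The oxidase Nox1 rested on 1 library: 6.52 CPM in 2-week library 5 against at most 0.394 CPM in the other 9 was called (log2 fold change -2.62), and without it the value was -0.06; the call was also lost without 7-week library 2, 4 or 5.

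Genes of mitochondrial respiration rose. Of 24 nuclear genes of oxidative phosphorylation, 20 rose and 0 fell (10 and 1 with total counts). Ndufa1, of complex I, stood at 27.6, 29, 27.8, 32 and 30.9 CPM at 2 weeks and 107, 108, 91.6, 105 and 108 CPM at 7 weeks. For Ndufa1 the log2 fold change was 1.82 ± 0.16 (adjusted p = 5.2e-08). Cox6a1, of complex IV, stood at 235 to 279 CPM at 2 weeks and 625 to 710.1 CPM at 7 weeks. Cox6a1 gave a log2 fold change of 1.42 ± 0.15 (adjusted p = 5.36e-07). Cox7a2 stood at 98.4 to 126 CPM at 2 weeks and 244 to 284 CPM at 7 weeks. Cox7a2 had a log2 fold change of 1.28 ± 0.16 (adjusted p = 2.02e-06). Of the 13 mitochondrially encoded genes, 0 passed in edgeR with all libraries (2-week library 5 carried 50710.0 CPM of mt-Nd1 against 2952 to 3918 CPM in the other 4), and without that library all 13 rose, with a median of 1.23. Limma-voom called 13 higher with all libraries, DESeq2 gave no adjusted p for 5 and called 0 of the other 8, and 0 had an unadjusted p under 0.05 in edgeR.

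The age difference was then set beside that in offspring of dams with periodontitis, which shares no library with it but was fitted in the same model. Of the 217 named genes called in control offspring (112 higher and 105 lower), 207 were also called in the same direction in the other offspring, 0 in the opposite direction, and 10 were not called. In that comparison 30.4% of all genes rose and 35.7% fell. The named genes were chosen in part by their change in control offspring. Whole lists did not all agree. Of the 21 B cell and plasma cell genes, 5 rose and 8 fell in the other offspring, against 8 and 2 in control offspring. Of 12 adipocyte genes tested, 4 rose and 3 fell there, against 2 and 8. All 27 collagen and matrix genes fell in both. These lists were picked after their values were seen, and their difference was not tested. In the other offspring 21 of 22 pancreas genes and all 10 gastric genes tested fell, against all 22 and 8 of 10 in control offspring. Xist stood there at 0.71 to 137 CPM at 2 weeks and 0.0512 to 0.658 CPM at 7 weeks. Age and the tissue sampled cannot be told apart there either. The difference between the 2 age effects was tested itself. Over all genes 4 passed in edgeR (0.0229%; 1537 at an unadjusted p under 0.05), 65 in DESeq2 and 1182 in limma-voom. Of the 230 named genes tested, 0 passed in edgeR (50 at an unadjusted p under 0.05), 7 in DESeq2 and 37 in limma-voom. Lct rose by 1.64 in control offspring and by 1.48 in the other offspring, Cyp3a11 by 4.35 and 4.91, and Igha by 6.05 and 5.39. Sis rose by 2.07 ± 0.72 in control and by 4.33 ± 0.79 in the other offspring, a difference of 2.25 ± 0.98 that did not pass (adjusted p = 0.553). Fcgrt differed by -2.0 ± 0.65 (adjusted p = 0.453).

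**Figure D5:**
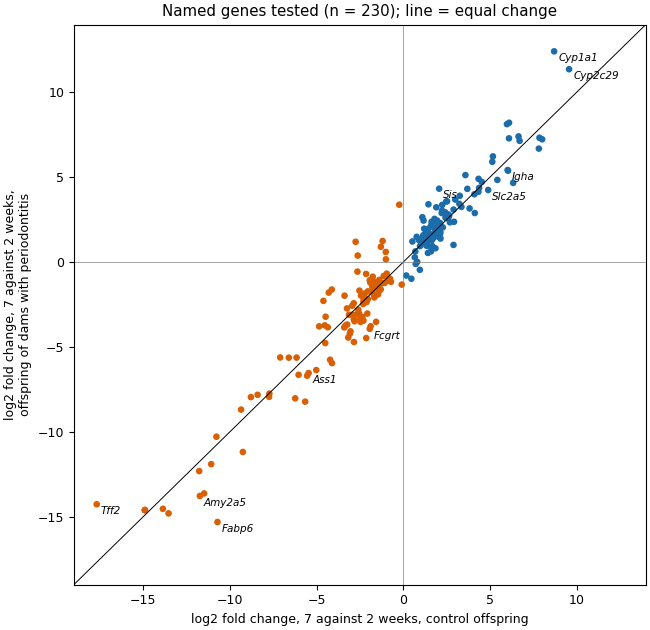
Log2 fold change of 7 against 2 weeks in control offspring (horizontal axis) and in offspring of dams with periodontitis (vertical axis) for the 230 named genes tested, 1 point per gene, with the line of equal change; blue points have a value above 0 and orange points one below 0 in control offspring. The 2 sets of libraries are separate but were fitted in the same model. Of the 217 genes called in control offspring, chosen in part by their change there, 207 were called the same way in the others.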

How the data were processed

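Small intestine RNA was sequenced in 20 libraries, 5 per dam group and age. The authors deposited expected counts per gene, made after trimming with cutadapt 4.8, quality control with FastQC 0.11.8, alignment with STAR 2.7.8a and counting with RSEM 1.3.3, per the submitters' processing notes, which list GRCm38 and GRCh38. Which build these libraries used, the annotation and the strand setting are not given in the sources used here. The deposited values were whole numbers, so rounding changed 0 of them. Of 55491 lines, 4 named no gene, held 0 counts and were left out.

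Samples were grouped by their labels. Counts were analysed with edgeR 4.0.16 in R 4.3.3 (TMM factors, filterByExpr, robust quasi-likelihood fit of the 4 groups over 20 libraries, Benjamini-Hochberg adjustment, threshold 0.05). The SE is the log2 fold change divided by the root of the F statistic. Alternatives used DESeq2 1.42.0, limma-voom 3.58.1, other scalings, filters and covariates, and left out libraries. On simulated data the method recovered 8.96% of 1.5-fold, 61.2% of 2-fold and 97% of 4-fold changes, so small changes could be missed. It made 11 false calls among 16973 unchanged genes. The simulation changed only 67, 67 and 66 genes of these sizes between the ages, whereas 61.5% of genes were called in the data. Its rates therefore need not hold for the data. The labels do not say that a replicate number marks a shared litter or batch, so no block was used.

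The members and gene lists were chosen with earlier results of these data known. Genes were named by this rule: the 12 largest rises and the 12 largest falls among called genes with a mean log2 CPM of at least 1 whose ages did not overlap, leaving out predicted loci and receptor segments; up to 3 members per list with the smallest p; and a list of set genes. Exceptions named within a list, and the marker sums other than the cell type markers, were chosen after their values were seen. Some genes that the rule or the lists hold are not reported here by name; they stay in the counts of each list.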

Additional observations from a re-analysis of the deposited data

Results flagged for a closer look

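In 64 cases 1 library of 5 lay apart from the other 4 of its age. Its gap to its nearest neighbour was more than 0.710 of the group's range (Dixon's 95% value). The rule was applied to at most 231 named genes, each at both ages, and chance gives about 1 in 20 such groups. A single case may thus be chance. The values are log2 CPM of that library, where -4.14 stands for 0 counts. 2-week library 5 made up 17 cases above and 34 cases below the other 2-week libraries. Above them lay Ccne2 3.58, Fabp4 6.41, Foxa1 5.23, Iglc3 0.87, Il18 5.30, Lgr5 5.20, Mcm4 5.40, Nr5a2 5.34, Pf4 2.42, Pla2g1b 4.14, Reg1 9.10, Sc5d 7.30, Slc11a2 11.84, Sparc 9.72, Stmn2 4.72, mt-Nd1 15.63 and mt-Nd2 15.19. Below them lay Abcc3 3.73, Acly 4.96, Alas2 0.03, Axin2 4.40, Btnl1 6.38, Btnl4 2.40, Ciita 1.56, Cldn15 5.74, Erbb3 6.77, Espn 6.18, Gata4 4.76, Ghrl 2.16, Gstm4 2.85, H2-Aa 4.94, Hadh 8.07, Irf1 5.26, Khk 4.81, Lct 8.75, Lipe 4.49, Mcpt4 -4.14, Mgll 3.96, Mzb1 -4.14, Pck2 3.10, Pycr1 0.93, Scarb2 5.83, Slc27a4 6.27, Slc2a5 3.99, Slc34a3 -0.36, Slc37a4 4.19, St3gal4 7.80, St6gal1 1.44, Tapbp 5.44, Tfe3 3.00 and Tkfc 5.39.

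The other libraries stood apart for few genes. Below the rest of its age, 2-week library 1 had Ddx3y -4.14 and Uty -3.72. Above the rest of its age, 2-week library 2 had Lin28b -3.65, just above the -4.14 of 0 counts in the others. Below the rest of its age, 2-week library 2 had Btnl2 6.40. Above the rest of its age, 2-week library 4 had Fabp6 8.99. Above the rest of its age, 7-week library 1 had Cldn8 -0.41. Below the rest of its age, 7-week library 1 had Fth1 13.32. Below the rest of its age, 7-week library 3 had Ndufa1 6.52, Pla2g12b 6.45 and Uty 4.01. Below the rest of its age, 7-week library 4 had Hsd17b6 7.95. Above the rest of its age, 7-week library 5 had Erbb3 9.06 and Fabp6 -0.36.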

How the results depend on the processing

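Total counts gave 1652 genes higher and 9925 lower, and 881 and 7382 by at least 2-fold. Testing for a fold above 2 in the model gave 1142 and 2629. A fit of the control libraries only gave 3887 higher and 5254 lower genes of 16163 tested. Limma-voom gave 6466 and 7589, and DESeq2 gave 4974 and 6166. Leaving out each control library in turn gave 4408 to 5794 higher and 5605 to 6614 lower genes, 2367 to 2579 and 4405 to 4740 by at least 2-fold, and 1 to 9 genes whose age effect differed between dams. That last count was 65 with DESeq2, 1182 with limma-voom and 159 without the 2 libraries that stand apart (2-week control library 5 and 7-week periodontitis library 5), a setting chosen after seeing the data, as was the fold test. The cause of these shifts was not tested. Of the 217 named genes called, 203 kept direction and call with total counts, 213 with limma-voom, 214 with the replicate block and 211 to 215 with each control library left out; with DESeq2 all 214 that had an adjusted p kept them.

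With the replicate number as a block, 4682 genes rose and 5730 fell, 2535 and 4484 by at least 2-fold, and 0 differed between dams (1139 at an unadjusted p under 0.05). Deviations of same-numbered libraries correlated at 0.054, -0.14, 0.086, 0.013 and 0.046, and those of differently numbered libraries at -0.18 to 0.19. The labels do not say whether a number marks a shared litter or batch, and so few correlations cannot decide it.

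Signs turned for the following genes, and the cause was not tested. Total counts gave -0.51 for H2-Aa, -0.092 for Pdk4, -0.25 for Prdm1 and -0.072 for Tfe3. Limma-voom gave -0.49 for H2-Aa, 1.02 for mt-Nd1, 1.38 for mt-Nd2 and 1.73 for mt-Nd4l, and without the 2 libraries that stand apart these were -0.046, 0.88, 1.21 and 1.14. St6gal1 was 0.074 with the Y-linked covariate. Leaving out single libraries gave -0.63 to 0.23 for Duox2, -0.21 to 0.34 for H2-Aa, -0.89 to 0.17 for St6gal1, -1.25 to 0.90 for mt-Nd1, -1.56 to 1.24 for mt-Nd2 and -1.49 to 1.17 for mt-Nd4l.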

Other observations

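Position genes of the homeobox Hox family, which pattern the body axis, were almost all lower at 7 weeks. Of 24 tested, 22 fell and 1, Hoxb13, a gene of the hindmost gut, rose, with either scaling. Hoxb13 was at 0 in all 2-week libraries and at 0.539 to 1.25 CPM at 7 weeks, a level at least 60.4-fold higher. All Hox genes together took 0.00757% to 0.0089% of counts at 2 weeks and 0.000904% to 0.0015% at 7 weeks.

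Of 80 cytosolic ribosomal protein genes tested, 45 fell and 4 rose (68 and 0 with total counts, and 51 and 6 without 2-week library 5). Of 19 clock genes, 7 rose and 3 (Per1, Per3 and Rora) fell (5 and 7 with total counts, and 8 and 5 without 2-week library 5), and the time of day of sampling is not given. Of 25 glucocorticoid and stress genes, 14 rose and 6 fell (7 and 6 with total counts). The median SD of log2 CPM over genes was 0.477 among the 2-week libraries, 0.14 without library 5, and 0.275 among the 7-week libraries.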
